A study of Mus musculus with 10 samples.

Results

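Transcripts of 10 receptor tyrosine kinases known from melanoma and from its cells of origin were described in sorted mouse melanoma cells. The genes are Kit, Ret, Met, Egfr, Erbb2, Erbb3, Igf1r, Fgfr1, Fgfr2 and Ntrk2, taken by name from a table of 34162 genes, and their counts were summed over all transcripts of each gene. All 10 genes were found, and 9 had enough counts to be tested. Ret was too low in every group.

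The libraries came from GFP-tagged melanoma cells of mice of the C57BL/6:SV129 background. Cells were taken from tumours of the skin, called primary, or from lymph nodes with metastases, and were sorted by GFP into positive cells, labelled c-Myc-high, and negative cells, labelled c-Myc-low. Primary tumours gave 2 libraries of each sorted class, and metastases gave 3 of each. The labels name no treatment, driver mutation or age for any group. They do not tie the replicates to different animals either, and the p-values thus cover the variation among these libraries alone. The RNA was amplified before sequencing.

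Receptor tyrosine kinases span the cell membrane. A ligand outside the cell brings receptor molecules together, their kinase domains phosphorylate each other, and adaptor proteins pass the signal to the RAS-MAPK and PI3K pathways. Kit and its ligand are required for melanocyte development, Met answers to hepatocyte growth factor, Erbb3 pairs with Erbb2 because its own kinase domain is nearly inactive, and Egfr and Fgfr2 are receptors of the epidermis.

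The estimated count per library ranged from 1603012 to 6844328. Values below are CPM, counts scaled to a common library size, on library sizes scaled by the TMM method, and 3 counts, the floor used for detection, stood for 0.362 to 2.8 CPM. All 10 melanocyte markers were detected in every library. Their summed level was 585.5 to 2725.4 CPM in primary and 2842.0 to 20252.8 CPM in metastatic libraries. Transcripts of other cells were present as well. The 17 keratinocyte markers, all detected in primary libraries, summed to 25172.6 to 92658.2 CPM there and to 37.3 to 957.7 CPM in metastatic libraries. The 10 leukocyte markers summed to 34.4 to 151.0 CPM in primary and 398.1 to 5185.1 CPM in metastatic libraries. Salivary gland markers reached 217008.8 CPM in metastatic c-Myc-high replicate 1 and 66339.6 CPM in replicate 3, against 14.3 to 821.3 CPM in the other 8 libraries. Some results, but not all that rest on these 2 libraries, are also given without them. In bulk samples, fewer cells of a type and less RNA per cell cannot be told apart.

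**Figure D1:**
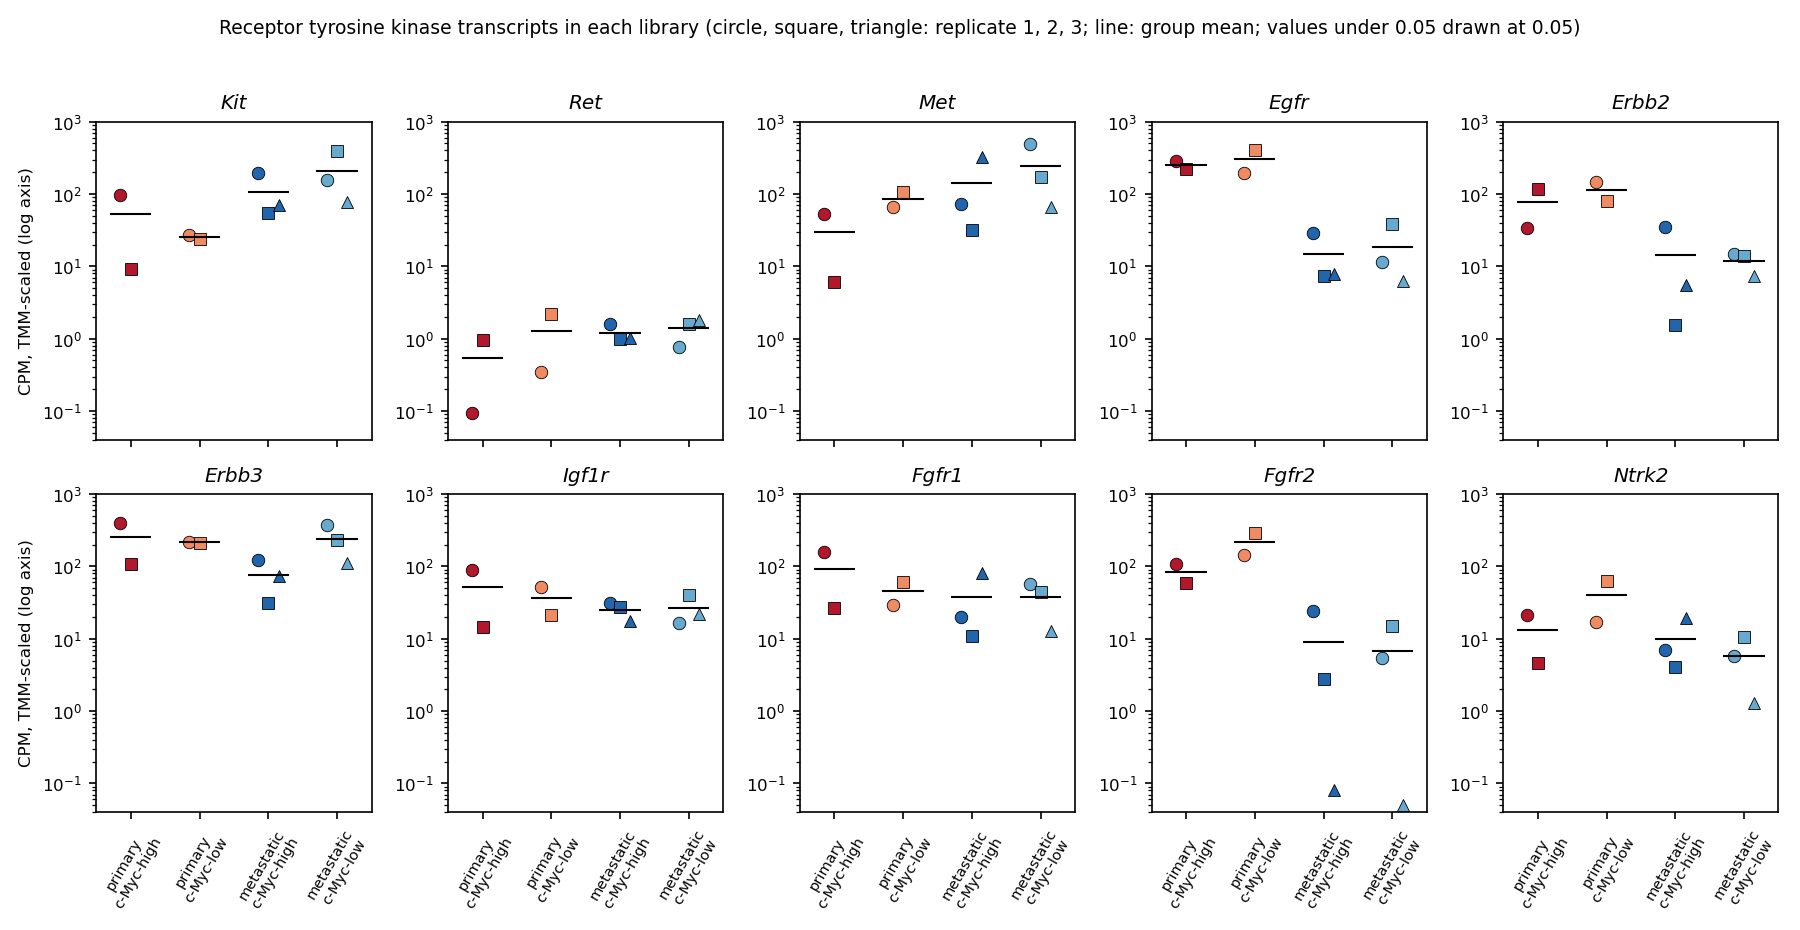
Each panel plots 1 receptor gene, with CPM on a log axis for each of the 10 libraries and a line at the mean of each group of 2 or 3. Egfr and Fgfr2 lay higher in all 4 primary libraries than in any of the 6 metastatic ones, and Ret lay near the floor of detection in all groups.

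Levels of different genes were compared per transcript length, as the authors' RPKM summed over transcripts and averaged over the 4 group means. Erbb3 was highest at 6.94 RPKM, followed by Met at 5.58, Kit at 5.13, Fgfr1 at 5.12, Fgfr2 at 5.04, Egfr at 2.85, Erbb2 at 2.18, Igf1r at 1.65, Ntrk2 at 0.418 and Ret at 0.0281 RPKM. The within-group SD was as large as 8.7 RPKM for Met and 7.49 RPKM for Fgfr1. Differences in RPKM between libraries include the authors' library scaling, which differs from that of CPM. Erbb3, with 1 transcript, stood at 14.75 and 0.984 RPKM in primary c-Myc-high replicates 1 and 2, against 401.3 and 109.6 CPM. Each gene from Erbb3 down to Ntrk2 differed from its neighbour in this order by less than the larger of their 2 within-group SDs, and the step from Ntrk2 to Ret exceeded the SD of both (0.25 and 0.0145 RPKM). The order differed by group. Fgfr1 had the highest mean in primary c-Myc-high at 13.2 RPKM, from 25.9 RPKM in replicate 1 and 0.416 in replicate 2. Egfr, at 1.58 RPKM, was highest in replicate 2. In CPM these Fgfr1 values were 159.1 and 26.3. RPKM divides by transcript length, so short transcripts add more per count to the sum. In replicate 1, 73.31 and 78.96 of 663.0 Fgfr1 counts lay on coding transcripts of 488 and 453 bases without the kinase motif. Neither this first place nor the mean of 5.12 RPKM above, which includes it, measures kinase-coding RNA. In the other groups the highest means were Fgfr2 at 13.5 RPKM (primary c-Myc-low), Kit at 3.11 (metastatic c-Myc-high) and Met at 14.4 (metastatic c-Myc-low). With the most abundant transcript in place of the sum, Fgfr2 moved up to the second place (3.61 RPKM) and Fgfr1 down to the eighth (0.92 RPKM). These were Fgfr2-217, whose coding sequence lacks the kinase motif, and Fgfr1-206, a retained-intron transcript, so neither value is a level of kinase-coding RNA.

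The first comparison was between cells from lymph node metastases and cells from skin tumours. Averaged over both c-Myc classes, Egfr, Erbb2 and Fgfr2 were lower in metastatic libraries, and no receptor was higher by the edgeR quasi-likelihood test. The 3 called genes were all lower, among 9 tested, while 13.8% of all 16805 genes tested were called, 5.65% lower and 8.13% higher. The median log2 fold change was -0.81 over the 9 receptors and 0.28 over all genes. Fold changes are metastatic over primary, and a call means an adjusted p below 0.05.

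Egfr, the receptor of EGF, TGF-alpha and related ligands, lies on chromosome 11 (GRCm38, 16752203 to 16918158, plus strand). Its level was 286.1 and 222.4 CPM in primary c-Myc-high and 197.5 and 402.9 CPM in primary c-Myc-low libraries. It was 29.2, 7.29 and 7.73 CPM in metastatic c-Myc-high and 11.5, 38.4 and 6.28 CPM in metastatic c-Myc-low libraries. Every primary library was thus above every metastatic one, in either class. Egfr and Fgfr2 were the receptors without overlap between the 4 primary and the 6 metastatic libraries, a pattern that 11% of all genes tested showed in either direction, 5.13% lower and 5.88% higher. The mean of Egfr over primary libraries was 277.2 ± 91.7 CPM (SD, n = 4). Over metastatic libraries it was 16.7 ± 13.6 CPM (SD, n = 6). The fitted log2 fold change was -4.05 (SE 0.66, adjusted p = 0.0028), or 16.6-fold lower, and it passed the threshold in all 21 alternative analyses (adjusted p 3.37e-08 to 0.0271), with -4.63 (adjusted p = 0.0164) without both salivary-rich libraries.

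Egfr was also the receptor called in c-Myc-high cells alone, the cells that the series' design text compares. Its log2 fold change there was -4.11 (SE 0.94, edgeR adjusted p = 0.0368), and 3.97% of all genes were called, 2.31% lower. This call was lost when any of 6 libraries was left out (replicate 1 of primary c-Myc-high, both of primary c-Myc-low, replicates 2 and 3 of metastatic c-Myc-high, replicate 1 of metastatic c-Myc-low), with adjusted p between 0.0501 and 0.0775. Without both libraries rich in salivary transcripts the log2 fold change was -5.17 (adjusted p = 0.0878), but that leaves 1 metastatic c-Myc-high library, whose spread is taken from the other groups. In c-Myc-low cells the log2 fold change of Egfr was -4.001 (SE 0.94, adjusted p = 0.0508). It passed there without any 1 of the metastatic c-Myc-high libraries (adjusted p 0.0375 to 0.0448) and without both salivary-rich libraries (adjusted p = 0.0401). The difference between the classes was -0.10 on the log2 scale (SE 1.26, adjusted p = 1).

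The promoter of Egfr is shown because Egfr had the lowest adjusted p of the receptors. The sequence is the 250 bases before the RefSeq start site, on GRCm38.p6, chr11:16751953-16752202, plus strand, and capitals mark a match to the GC box GGGCGG read on the other strand.
Egfr promoter: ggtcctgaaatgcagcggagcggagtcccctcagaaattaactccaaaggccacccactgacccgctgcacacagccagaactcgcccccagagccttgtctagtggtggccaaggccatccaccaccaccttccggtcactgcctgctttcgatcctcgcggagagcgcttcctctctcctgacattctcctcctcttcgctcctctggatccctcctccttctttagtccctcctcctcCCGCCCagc
Promoter entries were found for 7 of the 10 receptors (not for Ret, Erbb3 and Fgfr1). Both strands of these 250-base windows were searched for 4 motifs. GGGCGG, the GC box, was found in Kit, Met, Egfr and Igf1r and in 32.7% of 32851 promoters. CACGTG, the E-box that Myc and Max bind, was found in Met and in 6.02% of promoters. GCCNNNGGC, the AP-2 motif, was found in Kit and in 13.7% of promoters, and CATGTG, the M-box form of the E-box, in no receptor and in 12.3% of promoters. A match describes the letters of the window and is not a measured binding site.

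Erbb2, the ligandless partner of the other ERBB receptors, lies on chromosome 11 (98412470 to 98437716, plus strand). Its level was 34.3 and 119.2 CPM in primary c-Myc-high and 146.7 and 79.5 CPM in primary c-Myc-low libraries. Metastatic c-Myc-high libraries held 35.5, 1.55 and 5.46 CPM, and metastatic c-Myc-low libraries 14.9, 13.8 and 7.36 CPM. The sites overlapped in c-Myc-high cells through metastatic replicate 1 and did not overlap in c-Myc-low cells. Over both classes the log2 fold change was -2.82 (SE 0.78, edgeR adjusted p = 0.0328), and without the 2 salivary-rich libraries, which include metastatic c-Myc-high replicate 1, it was -4.45 (adjusted p = 0.0141). Leaving out 1 library ended the call for replicate 2 of primary c-Myc-high, either library of primary c-Myc-low, replicate 3 of metastatic c-Myc-high and any of metastatic c-Myc-low (adjusted p 0.0534 to 0.144). Within a class Erbb2 was not called. In c-Myc-high cells its log2 fold change was -2.42 (SE 1.09, adjusted p = 0.185), while c-Myc-low cells gave -3.23 (SE 1.11, adjusted p = 0.172). An exon of Erbb2 overlaps Mien1 on the other strand, and without stated strandedness reads of the shared part cannot be told apart.

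Fgfr2, a receptor of fibroblast growth factors, lies on the minus strand of chromosome 7. Its level was 109.2 and 59.3 CPM in primary c-Myc-high and 142.1 and 288.7 CPM in primary c-Myc-low libraries. In metastatic c-Myc-high libraries it was 24.6, 2.78 and 0.0818 CPM, and in metastatic c-Myc-low libraries 5.49, 14.9 and 0.00273 CPM. Replicate 3 of each metastatic group was under the 3-count floor. Over both classes the log2 fold change was -4.08 (SE 1.17, edgeR adjusted p = 0.0387), within c-Myc-high cells -3.19 (SE 1.61, adjusted p = 0.224) and within c-Myc-low cells -4.97 (SE 1.71, adjusted p = 0.172). The call was lost on leaving out any of the 4 primary libraries, replicate 2 of metastatic c-Myc-high, or replicate 1 or 2 of metastatic c-Myc-low (adjusted p 0.0522 to 0.114), and without both salivary-rich libraries (-4.99, adjusted p = 0.0636).

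Most Fgfr2 counts lay on a transcript that also reaches another gene. Fgfr2-217 took 61.6% of the summed estimated count. Of its 2425 bases, 2111 in 5 exons lie at the 3′ end of Fgfr2 and 314 in 2 exons at Ctbp2, a transcriptional co-repressor gene. Ctbp2 itself was at 7.45 to 16.1 CPM in primary and 8.12 to 31.1 CPM in metastatic libraries, a range that overlaps between sites. Without this transcript the log2 fold change of Fgfr2 over both classes was -3.37 (SE 1.10, edgeR adjusted p = 0.0612), in the same direction but past the threshold no longer.

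**Figure D2:**
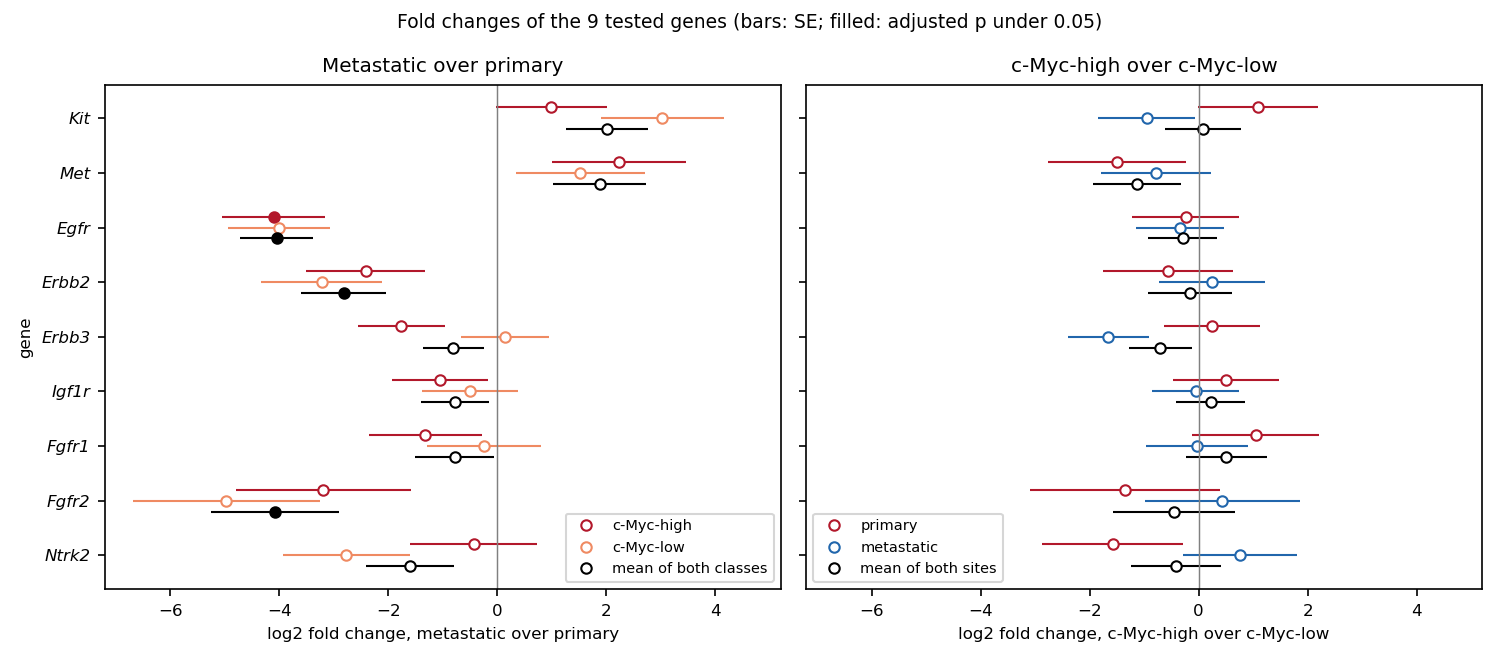
Log2 fold changes with SE of the 9 tested receptors, metastatic over primary on the left and c-Myc-high over c-Myc-low on the right, with filled points where the edgeR adjusted p was under 0.05. Filled points are Egfr in c-Myc-high cells and Egfr, Erbb2 and Fgfr2 in the mean of both classes, and none on the right is filled.

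Kit, the receptor of stem cell factor, and Met, the receptor of hepatocyte growth factor, had the 2 positive log2 fold changes over both classes, and neither was called by edgeR. Kit (chromosome 5, 75574916 to 75656722) stood at 98.2 and 9.33 CPM in primary c-Myc-high and 27.1 and 23.6 CPM in primary c-Myc-low libraries. It stood at 197.1, 54.8 and 70.8 CPM in metastatic c-Myc-high and 158.1, 387.7 and 76.6 CPM in metastatic c-Myc-low libraries. The sites did not overlap in c-Myc-low cells, and in c-Myc-high cells primary replicate 1 lay above 2 of the 3 metastatic libraries. The log2 fold change of Kit was 3.03 in c-Myc-low cells (SE 1.12, edgeR adjusted p = 0.209), 0.99 in c-Myc-high cells (SE 1.02, adjusted p = 0.554) and 2.01 over both (SE 0.75, adjusted p = 0.0969). Over both classes Kit passed in 2 of 21 alternatives, with DESeq2 (2.02, adjusted p = 0.0248) and when replicate 1 of primary c-Myc-high was left out (3.13, adjusted p = 0.0427). In c-Myc-low cells it passed in 3 of 22, with DESeq2, with limma-voom and with only the 2 groups compared (adjusted p 0.00481 to 0.0422). Without both salivary-rich libraries the value in c-Myc-high cells was -0.02.

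Met (chromosome 6, 17463800 to 17573980) stood at 53.0 and 6.13 CPM in primary c-Myc-high and 65.2 and 105.5 CPM in primary c-Myc-low libraries. It stood at 71.9, 31.8 and 325.6 CPM in metastatic c-Myc-high and 496.4, 170.4 and 66.9 CPM in metastatic c-Myc-low libraries. The sites overlapped in both classes. The log2 fold change over both classes was 1.88 (SE 0.85, edgeR adjusted p = 0.16), and without both salivary-rich libraries it was 0.74 (adjusted p = 0.618).

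Erbb3, Igf1r and Fgfr1 overlapped between the sites in both classes. Erbb3, the neuregulin receptor, was at 401.3 and 109.6 CPM in primary c-Myc-high and 214.9 and 214.1 CPM in primary c-Myc-low libraries. In metastases it was at 120.9, 31.0 and 74.1 CPM in c-Myc-high and 368.8, 228.9 and 112.8 CPM in c-Myc-low libraries. Its log2 fold change was -1.76 in c-Myc-high cells (SE 0.80, edgeR adjusted p = 0.186) and 0.14 in c-Myc-low cells (SE 0.81, adjusted p = 1). Igf1r, the receptor of insulin-like growth factors, was within 14.5 to 88.9 CPM in all 10 libraries. Primary libraries averaged 44.3 ± 34.0 CPM (SD, n = 4) and metastatic ones 25.7 ± 8.87 CPM (SD, n = 6), with a log2 fold change of -0.77 (SE 0.62, adjusted p = 0.448). Fgfr1, the broadly expressed FGF receptor, averaged 68.9 ± 62.2 CPM (SD, n = 4) over primary and 37.6 ± 28.2 CPM (SD, n = 6) over metastatic libraries, with a log2 fold change of -0.79 (SE 0.73, adjusted p = 0.522). Its highest library, at 159.1 CPM, was primary c-Myc-high replicate 1, without which the log2 fold change was 0.0079 (adjusted p = 1).

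Ntrk2 encodes TrkB, the receptor of brain-derived neurotrophic factor. In skin tumours it was at 21.5 and 4.65 CPM in c-Myc-high libraries and at 17.2 and 62.9 CPM in c-Myc-low ones. In metastases c-Myc-high libraries held 7.06, 4.08 and 19.1 CPM, and c-Myc-low ones 5.74, 10.5 and 1.29 CPM. The sites overlapped in c-Myc-high and not in c-Myc-low cells. Its log2 fold change was -2.77 in c-Myc-low cells (SE 1.17, edgeR adjusted p = 0.278) and -1.60 over both classes (SE 0.81, adjusted p = 0.21). Ret, the receptor of GDNF-family ligands, was between 0.0951 and 2.21 CPM, and its summed estimated count was 11.9 over the 4 primary and 41.2 over the 6 metastatic libraries.

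In c-Myc-low cells none of the 9 receptors was called by edgeR with adjustment over all genes. Of all genes 2.11% were called (1.74% lower and 0.375% higher). At an unadjusted p under 0.05 there were 5 receptors (Kit, Egfr, Erbb2, Fgfr2 and Ntrk2), beside 15.1% of all genes. The same 5 did not overlap between the sites, Kit higher and the others lower in metastatic libraries, beside 45.3% of all genes tested that did not overlap (20.1% lower and 25.2% higher). DESeq2 called 4 receptors in that comparison, 1 higher and 3 lower, beside 1708 of 16805 genes (1044 higher and 664 lower). In c-Myc-high cells Egfr and Fgfr2 did not overlap, both lower, beside 27.9% of all genes.

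Cell-type markers moved with these receptors. The keratinocyte list was lower in metastatic libraries for 16 of its 17 genes by the same test over both classes, and its summed ranges are given above beside Egfr, Erbb2 and Fgfr2. The defining keratins were present at low levels in the 6 metastatic libraries, with Krt5 at 3.57 to 7.57 CPM against 1274 to 16860 CPM and Krt14 at 4.08 to 8.51 CPM against 990.2 to 13210 CPM. Dsc1, Ivl or Flg was at 0 in 5 of the 6. Among the 4 primary libraries the marker sum and the defining keratins were ordered differently. In c-Myc-high replicate 2, where Fgfr2 was lowest and Erbb2 was 119.2 CPM, the sum was highest while Krt5 (1274 CPM) and Krt14 (990.2 CPM) were lowest. The melanocyte list had positive log2 fold changes for all 10 genes, with 4 called and a median of 2.38, beside Kit and Met. Mast cells also express Kit. Their 9 markers summed to at most 7.8 CPM in primary libraries and 3.2 to 286.6 CPM in metastatic ones, with Ms4a2 at 0 in all 10 libraries. In metastatic c-Myc-low replicate 2, where Kit was highest, they summed to 21.5 CPM. Endothelial markers summed to 6.6 to 27.3 CPM in primary and 140.0 to 573.1 CPM in metastatic libraries. The part of these cells in the receptor levels was not tested.

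**Figure D3:**
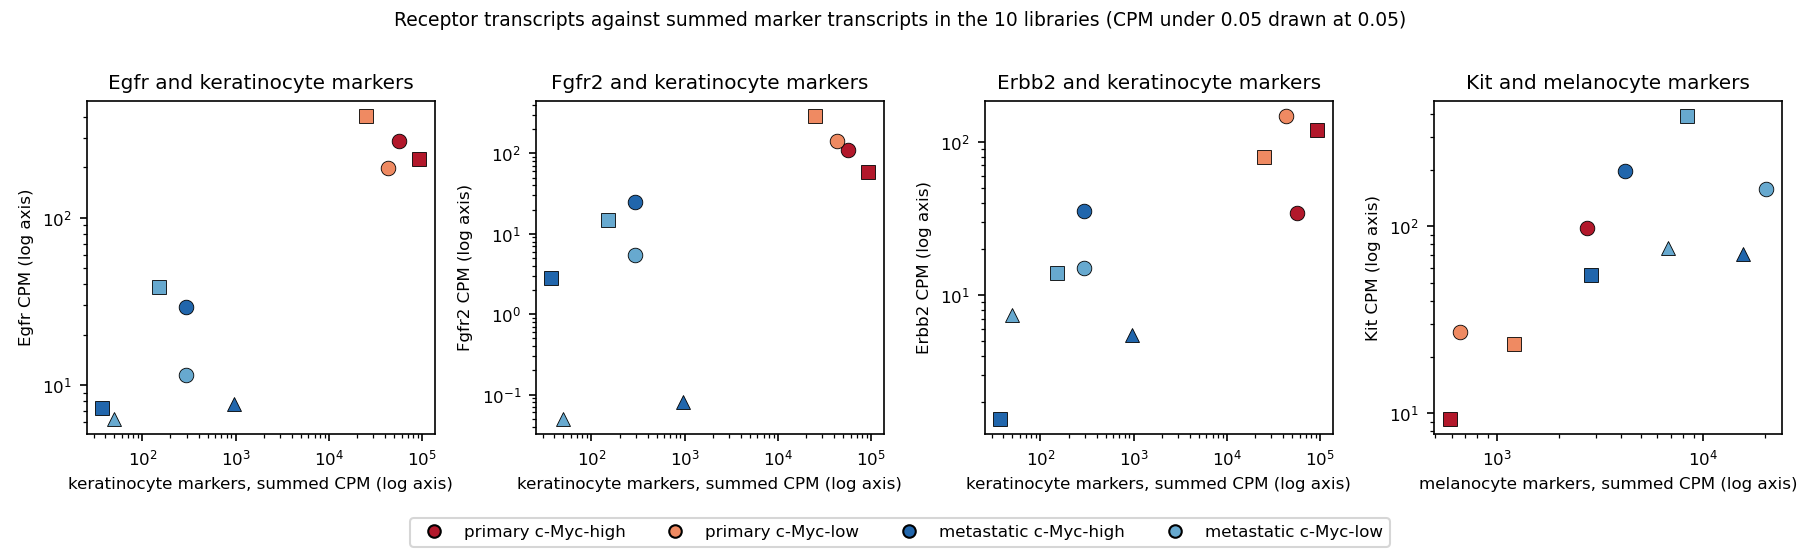
Each point is 1 of 10 libraries, with summed marker CPM on the horizontal log axis and receptor CPM on the vertical log axis, coloured by group and shaped by replicate. The primary libraries hold 25172.6 CPM or more of keratinocyte markers and the metastatic ones 957.7 CPM or less, and Kit, like the melanocyte sum, is lowest in primary c-Myc-high replicate 2.

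Other receptor tyrosine kinases were called in both directions. Of 48 further members of the family, 37 were tested. Over both classes 4 were higher and 9 lower in metastatic libraries, beside 13.8% of all genes called (5.65% lower, 8.13% higher). The median log2 fold change of the 37 was 0.08, against 0.28 over all genes. The 4 with the lowest p are named here, all of them lower, and the 4 higher ones are not named. Ephb6, a kinase-inactive ephrin receptor, fell by 7.79 on the log2 scale (SE 0.78, edgeR adjusted p = 0.000109), from 54.4 to 124.9 CPM in primary to at most 1.04 CPM in metastatic libraries. Epha4, an ephrin receptor, fell by 6.93 (SE 0.70, adjusted p = 0.000113). Mst1r, the receptor of macrophage-stimulating protein and a relative of Met, fell by 8.16 (SE 0.93, adjusted p = 0.000249), from 61.0 to 160.6 CPM to at most 0.815 CPM. Fgfr3, a relative of Fgfr2, fell by 3.75 (SE 0.49, adjusted p = 0.000603), from 102.7 to 235.8 CPM to 6.74 to 13.5 CPM. Each of these 4 was also called lower within each class, where 2.31% of all genes were called lower in c-Myc-high and 1.74% in c-Myc-low cells. Of 22 alternatives in c-Myc-high cells, Ephb6 passed in 21, Epha4 and Mst1r each in 20 and Fgfr3 in 17. In c-Myc-low cells the call of Mst1r was lost without replicate 1 or 2 of metastatic c-Myc-low (adjusted p 0.0557 and 0.0571), and that of Fgfr3 without any 1 c-Myc-low library (adjusted p 0.0562 to 0.132). In c-Myc-high cells Mst1r had 2.0 counts in the metastatic group against 426.2 in the primary group, a ratio of 430 with a 95% counting interval of 118 to 3560.

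Among ligands, 20 of 31 were tested, with 1 higher and 4 lower in metastatic libraries over both classes and a median of -0.66, beside 13.8% of all genes called (5.65% lower, 8.13% higher) and their median of 0.28. Epgn, which encodes epigen, fell by 6.54 on the log2 scale (SE 1.11, edgeR adjusted p = 0.00345), from 22.4 to 136.6 CPM in primary to at most 2.83 CPM in metastatic libraries. Ereg, which encodes epiregulin, fell by 7.15 (SE 1.34, adjusted p = 0.00577). Ntf5, which encodes neurotrophin-4, had 0 counts in all 6 metastatic libraries and 60.6 in the primary ones, with 30.8 CPM in replicate 2 of primary c-Myc-high and 0 to 2.6 CPM in the other primary libraries. Ntf5 was called lower (adjusted p = 0.0326), but in 9 of 21 alternatives only, and not without that library (adjusted p = 1), either library of primary c-Myc-low, replicate 1 of metastatic c-Myc-high or any of metastatic c-Myc-low (adjusted p 0.0516 to 0.0892). Fgf1, a ligand of all FGF receptors, was higher in metastatic libraries by 6.78 (SE 1.46, adjusted p = 0.0131), at 7.42 to 117.3 CPM against 0.0181 to 5.66 CPM. It passed in 16 of 21 alternatives, and not without replicate 1 of primary c-Myc-high or of primary c-Myc-low (adjusted p 0.0713 and 0.0715). In c-Myc-high cells Epgn and Ereg were called lower, at ratios of 399 (95% counting interval 136 to 1940) and 137 (23.8 to 5500). Epgn passed there in 14 of 22 alternatives, and not without replicate 1 of primary c-Myc-high or replicate 1 or 2 of metastatic c-Myc-high (adjusted p 0.0596 to 0.0872). Ereg passed in 6 of 21, and not without any 1 library (adjusted p 0.0575 to 0.178) other than replicate 1 of primary c-Myc-high. In c-Myc-low cells no ligand was called, and those with the lowest p were Ereg (-6.33, adjusted p = 0.0946) and Epgn (-4.98, adjusted p = 0.103). Hgf, the Met ligand, was at 0 to 4.60 CPM and Kitl, the Kit ligand, at 1.95 to 34.0 CPM over the 10 libraries.

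Of 20 co-receptors, binding proteins and inhibitors, 17 were tested, with 1 higher and 4 lower over both classes and a median of -0.03. Over all genes 13.8% were called (5.65% lower, 8.13% higher) and the median was 0.28. Fgfbp1, a carrier that releases FGFs from matrix, fell by 9.65 on the log2 scale (SE 1.07, edgeR adjusted p = 0.000209), from 147.7 to 505.0 CPM in primary to at most 4.58 CPM in metastatic libraries. Sdc1, the heparan sulfate co-receptor syndecan-1, fell by 5.76 (SE 0.67, adjusted p = 0.000286), and Igfbp3, an IGF-binding protein, fell by 2.02 (SE 0.49, adjusted p = 0.0197). Fgfrl1, an FGF receptor without a kinase domain, was higher by 5.33 (SE 1.20, adjusted p = 0.0139), at 4.93 to 136.7 CPM in metastatic against 0.24 to 1.73 CPM in primary libraries. Igfbp3 and Fgfrl1 each passed in 15 of 21 alternatives over both classes. Within c-Myc-high cells Sdc1 passed in 19 of 22 alternatives and Fgfbp1 in 18. The call of Igfbp3 was lost without either library of primary c-Myc-low or replicate 2 of metastatic c-Myc-low (adjusted p 0.0549 to 0.113), and that of Fgfrl1 without replicate 1 of primary c-Myc-high or either library of primary c-Myc-low (adjusted p 0.0685 to 0.097). Sdc1 and Fgfbp1 were called lower in each class, Sdc1 in c-Myc-low cells not without replicate 1 of primary or replicate 2 or 3 of metastatic c-Myc-low (adjusted p 0.056 to 0.0727), and in c-Myc-low cells Fgfbp1 had a ratio of 7130 (95% counting interval 1280 to 282000).

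Of 34 adaptors and regulators, 33 were tested, with 4 higher and 2 lower over both classes and a median of 0.33. Over all genes 13.8% were called and the median was 0.28, near the values of this list. Grb10, an adaptor that binds insulin and IGF1 receptors, was higher in metastatic libraries by 5.05 on the log2 scale (edgeR adjusted p = 0.00782), at 17.9 to 165.8 CPM against 0.0336 to 10.3 CPM. It was not called without replicate 1 of primary c-Myc-low (adjusted p = 0.0641). Nf1, a RAS inhibitor, was higher by 1.86 (SE 0.51, adjusted p = 0.0311) and Pik3r1, a PI3K regulatory subunit, by 2.04 (SE 0.59, adjusted p = 0.0407). Over the alternatives Nf1 passed in 10 of 21 (adjusted p up to 0.193) and Pik3r1 in 7 of 21 (up to 0.207). The call of Nf1 was lost without replicate 2 of primary c-Myc-high, either library of primary c-Myc-low, or replicate 1 or 2 of metastatic c-Myc-low. That of Pik3r1 was lost without any 1 library other than replicate 2 of primary c-Myc-high or of metastatic c-Myc-high. Cblc, an epithelial ubiquitin ligase for receptors, fell by 4.59 (SE 1.12, adjusted p = 0.0198), and passed in 17 of 20 alternatives, but not without replicate 1 of primary c-Myc-low or replicate 1 or 2 of metastatic c-Myc-low (adjusted p 0.0577 to 0.125). Within c-Myc-high cells Grb10 was called, with a ratio of 111 (95% counting interval 30.7 to 923), but in 5 of 22 alternatives only. That call was lost on leaving out any 1 library other than replicate 2 of primary c-Myc-high (adjusted p 0.0522 to 0.146). In c-Myc-low cells none was called, and those with the lowest p were Cblc (-5.71, adjusted p = 0.0989) and Grb10 (3.68, adjusted p = 0.164).

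Between the cells sorted by GFP, c-Myc-high against c-Myc-low, no receptor was called. By edgeR no gene among 16805 was called within primary tumours, within metastases, over both sites or for the difference between sites (0% each). At an unadjusted p under 0.05 there were 1953, 807, 2160 and 1150 genes, and DESeq2 called 406, 86, 511 and 85. The lowest adjusted p of a receptor was 0.628, 1, 0.58 and 0.773. DESeq2 called none of the 9 receptors in these comparisons. Over both sites the 9 log2 fold changes, c-Myc-high over c-Myc-low, lay between -1.13 and 0.51 with a median of -0.29, and that of all genes was -0.11.

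Within sites the receptors with the lowest p did not pass the threshold. In primary tumours Met and Fgfr2 were lower in both c-Myc-high libraries than in both c-Myc-low ones, while 41.5% of all genes did not overlap there, 30.2% being lower in c-Myc-high. Ntrk2 had a log2 fold change of -1.58 in primary tumours (SE 1.30, edgeR adjusted p = 0.628). In metastases no receptor was free of overlap, beside 11.1% of all genes (7.74% lower and 3.33% higher in c-Myc-high). The lowest p there was that of Erbb3, with 1 c-Myc-high library above the lowest c-Myc-low one and a log2 fold change of -1.65 (SE 0.74, unadjusted p = 0.0453, adjusted p = 1). Met had the lowest p over both sites, at -1.13 (SE 0.81, adjusted p = 0.58). The largest difference between the sites in the class contrast, among the 9 receptors, was that of Ntrk2, at 2.34 (SE 1.67, adjusted p = 0.809).

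No other gene of the lists was called between the classes by edgeR. In primary tumours the 2 genes with the lowest p per list were Kdr and Epha7 among receptors, Nrg4 (log2 fold change 4.08) and Btc among ligands, Igfbp2 (4.57) and Ngfr (-2.16) among co-receptors and binding proteins, and Pik3r1 (-2.57) and Grb10 among adaptors, with adjusted p between 0.419 and 0.465. Counts behind Kdr, Epha7 and Grb10 were 3 or fewer in 1 group. Ratios were 25.8 (95% counting interval 6.37 to 226) for Kdr and 39.3 (10.1 to 337) for Epha7, higher in c-Myc-high. For Grb10 the ratio was 17.2 (4.59 to 144), lower in c-Myc-high. Kdr stood at 0.618 and 18.7 CPM in primary c-Myc-high replicates 1 and 2, so its ratio rests on 1 library. Btc, a ligand of EGF receptors, had 0.0 counts in primary c-Myc-high libraries and stood at 1.43 and 7.75 CPM in primary c-Myc-low ones. Nrg4, a ligand of ERBB4, stood at 286.8 and 49.2 CPM in primary c-Myc-high against 7.18 and 12.7 CPM in primary c-Myc-low libraries.

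In metastases the genes with the lowest p were Ephb4 (2.20) and Ptk7 (-2.50), Egf (4.19) and Fgf9, Fgfbp1 and Lrig1 (1.64), and Shc2 and Grb7 (2.15), with edgeR adjusted p from 0.935 to 1. Egf, also expressed in salivary gland, was at 35.6, 2.87 and 11.3 CPM in metastatic c-Myc-high libraries, highest in the 2 libraries rich in salivary transcripts. Fgf9 had 0.0 counts in c-Myc-low metastatic libraries. Its c-Myc-high mean was 17.2-fold above the pooled 3-count floor of those libraries, a figure that covers counting error only. Its CPM was 4.198 and 3.165 in the same 2 salivary-rich libraries and 0 in replicate 2. Over 18 alternatives its log2 fold change ranged from 0.244 to 7.21. Ratios were 41.8 (95% counting interval 6.72 to 1730) for Fgfbp1, higher in c-Myc-high, and 52.8 (9.27 to 2100) for Shc2, lower in c-Myc-high. Lrig1, an inhibitor of ERBB receptors, was at -0.33 and Fgfbp1 at -1.59 without the 2 salivary-rich libraries.

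Over both sites the lowest p values per list belonged to Ephb4 (1.96) and Kdr (3.42), Nrg4 (2.44) and Fgf1 (-4.10), Fgfbp1 (2.49) and Lrig1 (1.76), and Shc2 (-4.83) and Grb10 (-2.27), with edgeR adjusted p between 0.305 and 0.339. For the difference between sites they belonged to Kdr (-5.51) and Flt1 (-5.69), Btc (7.65) and Fgf7 (-6.39), Fgfbp1 (4.88) and Igfbp2 (-7.49), and Pik3r1 (2.97) and Grb10 (2.74), with adjusted p between 0.724 and 0.79. Flt1, a VEGF receptor, was at 878.4 CPM in primary c-Myc-high replicate 1 and at 0.116 CPM in replicate 2. Igfbp2 was at 190.3 CPM in primary c-Myc-high replicate 2 and at 0 in replicate 1, the library pair that also differed in fibroblast markers (5303.2 against 366.9 CPM). The part of those cells was not tested.

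The deposited counts are per transcript, so receptors could be divided by whether the annotated coding sequence spans the catalytic motif of the kinase domain. Of 68 transcripts, kinase-coding ones took 98.3% of the count for Kit, 87.2% for Met, 98% for Egfr and 92.7% for Erbb2, and Erbb3 and Igf1r had a single transcript each. The 2 coding forms of Kit, Kit-201 and Kit-204, carried equal counts in every library and cannot be told apart. Counts of transcripts were estimates, and reads of shared exons limit them.

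Ntrk2 lay nearly wholly on a truncated form. Ntrk2-202, which codes for TrkB without a kinase domain, took 97.2% of the count, and the kinase-coding Ntrk2-201 took 2.84%. Among libraries with at least 20 Ntrk2 counts, the kinase-coding share was 16.7% of 26.2 counts in metastatic c-Myc-high replicate 1 and 38.2% of 37.3 counts in replicate 3. It was 0% in the other 6, which held up to 217.8 counts. Those 2 libraries are the ones rich in salivary gland transcripts, and whether these cells held the kinase-coding form was not tested.

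Fgfr1 and Fgfr2 carried a larger share on other forms. For Fgfr1, 53.7% of the count lay on transcripts not annotated as coding, most of it on the retained-intron transcripts Fgfr1-206 and Fgfr1-204, and 38.7% on kinase-coding transcripts. An exon of Fgfr1 overlaps the gene Gm16159 on the other strand. For Fgfr2, 23.3% of the count was kinase-coding.

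Shares of transcript forms were compared between groups in tests with few arrangements, 6 to 120 each. In 16 exact two-sided permutation tests, the lowest p was 0.025 (adjusted p = 0.4), for Kit, whose kinase-coding share was 4.19 percentage points higher in metastatic than in primary libraries (n = 9 libraries). That is the smallest p that its 40 arrangements allow, so this share could not have passed alone after adjustment, and the tests do not show that shares were alike. The share of Fgfr2 that was kinase-coding was 19.8 points higher in metastatic libraries (n = 7, exact permutation p = 0.111, adjusted p = 0.593).

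**Figure D4:**
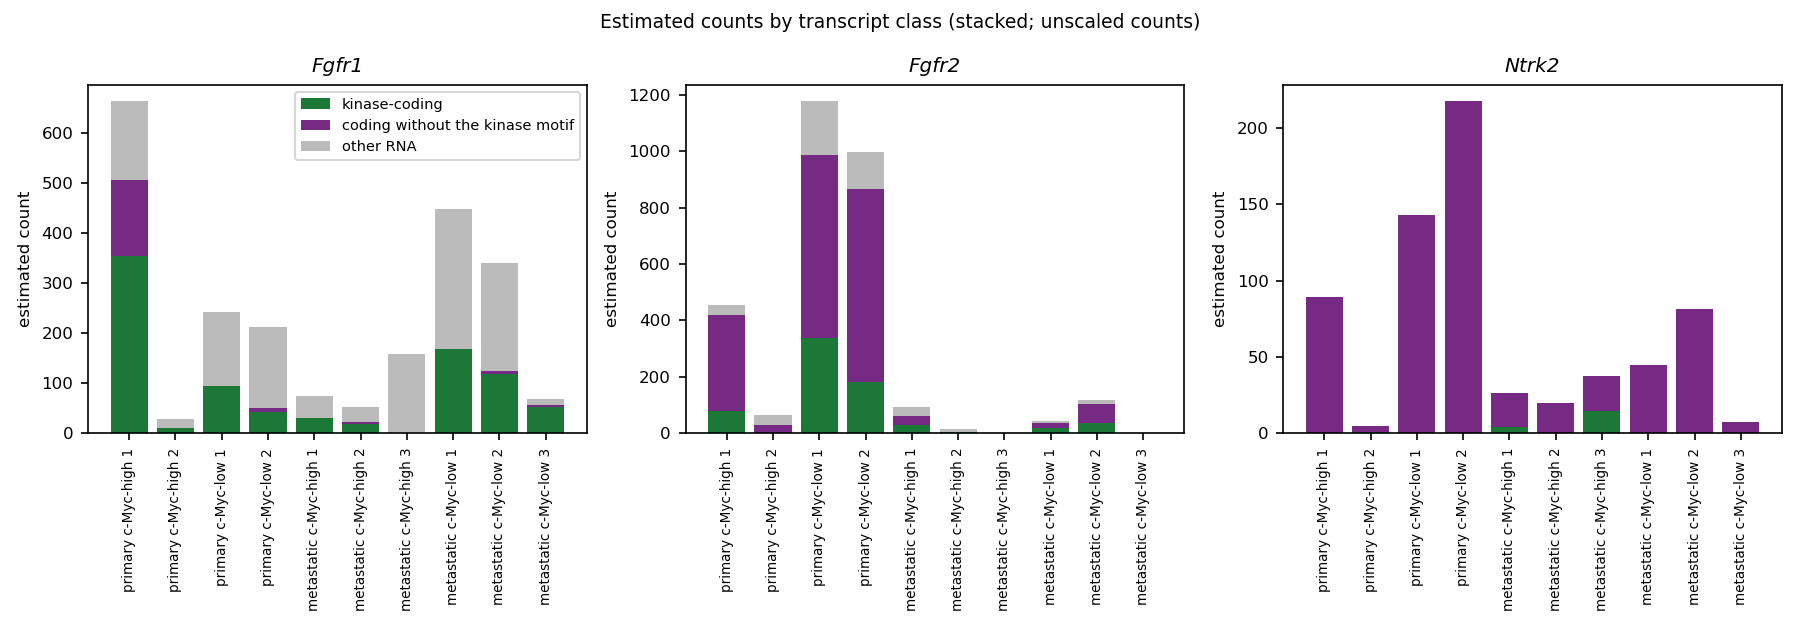
Stacked bars give the estimated count of Fgfr1, Fgfr2 and Ntrk2 in each library, unscaled, divided into kinase-coding transcripts, coding transcripts without the kinase motif and other RNA. Ntrk2 is nearly wholly the form without the kinase motif (97.2% of the count), and kinase-coding Ntrk2 exceeds the floor of 3 counts in 2 libraries, both metastatic c-Myc-high (4.37 and 14.25 counts).

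For each receptor, genes with the most similar pattern over the 10 libraries were found among 10235 expressed genes, by the root-mean-square difference of centred log2 CPM, as a description with no test. Kit was nearest to Slc5a3 (0.469), Abhd2 (0.634) and Sema6d (0.635). Met was nearest to Casp12 (0.479), Ednrb (0.576) and Trpm1 (0.658). Ednrb, the endothelin receptor of melanoblasts, and Trpm1, a channel of melanocytes, are genes of the pigment lineage. Casp12, the nearest to Met, was not assigned to a cell type here. Egfr was nearest to Hpgds (0.65), Sec14l2 (0.699) and Il1rl2 (0.741), and Fgfr2 to Car12 (1.18), Ripk4 (1.2) and Il1rl2 (1.26). Il1rl2, the interleukin-36 receptor of keratinocytes, and Ripk4, a kinase of epidermal differentiation, are epidermal genes. Hpgds and Sec14l2, the nearest to Egfr, and Car12, the nearest to Fgfr2, were not assigned to a cell type here. Erbb2 was nearest to Rora (0.415), Tmem65 (0.583) and Ppp2r3a (0.685), Erbb3 to Nckap1 (0.422), Wasl (0.443) and Slc25a24 (0.469), and Igf1r to Nop56 (0.303), Carm1 (0.315) and Pcf11 (0.368). Genes near Fgfr1 included Bhlhe40 (0.453) and Cadm1 (0.471), and Ntrk2 was nearest to Blzf1 (0.816), Psat1 (0.848) and Vti1a (0.87). The receptors themselves varied unequally over the libraries, with an SD from 0.807 (Igf1r) to 3.37 (Fgfr2) on the log2 scale.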

How the data were processed

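RNA was sequenced in 10 libraries of sorted melanoma cells, after amplification with the Nugen kits named in the labels' protocols. The authors deposited 1 table of 92214 transcripts with estimated counts per transcript, unscaled and not always whole. It also holds RPKM, which the authors scaled to length and to a library size that differs from the summed estimated count. Bowtie2, limma and mm10 are named, without versions, per the submitters' processing notes. For the read-assignment program, annotation release and strandedness, the status is: not given in the sources used here.

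Groups and replicate numbers came from the labels. Counts were summed by gene name, rounded and tested with edgeR 4.0.16 in R 4.3.3 (default expression filter, TMM scaling, robust quasi-likelihood test over all 4 groups, no covariate), with Benjamini-Hochberg adjustment over 16805 genes in each of 7 comparisons. The common biological coefficient of variation was 0.876. Where no tool is named, an adjusted p-value is that of edgeR. The procedure was also run on simulated counts, with levels and spreads fitted to these libraries and no mixture of cell types. That run does not test the calls made here. DESeq2 1.42.0 and limma 3.58.1 were alternatives, as were other scalings, filters, pseudocounts, transcript choices and leaving out each library. Shares of transcript forms were tested by exact permutation within sites or classes in libraries with at least 20 counts.

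Every receptor was named. From 4 lists of pathway genes up to 4 called genes per list and comparison were named, or the 2 with the lowest p where none was called, and 3 similar genes per receptor, of which 1 is not reported here. There were 12 lists of cell markers. The members and lists were chosen with earlier results of these data known. Group ranges for Hgf, Kitl, Krt5 and Krt14 were added outside this rule. Counting intervals (95%, exact binomial) and floors of 3 counts cover counting error only, since the labels name no molecular identifiers. Transcript classes and positions came from GENCODE M21 on GRCm38, and promoters from RefSeq on GRCm38.p6. A kinase-coding transcript is one whose coding sequence spans the catalytic loop and DFG motif.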

Additional observations from a re-analysis of the deposited data

How the results depend on the processing

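The call of Egfr over both classes held in all 21 alternatives, those of Erbb2 in 10 and of Fgfr2 in 11. In c-Myc-high cells, where 667 genes and 1 receptor were called, other settings called 1273 (no filter), 3304 (DESeq2), 166 (limma-voom), 278 and 75 (RPKM, pseudocounts 0.1 and 1), 335 (highest transcript), 155 (2 groups only) and 0 genes (without both salivary-rich libraries, chosen after seeing the data, which leaves 1 metastatic c-Myc-high library and is no measure of dependence on salivary transcripts), and 0 receptors in all of these except the first 2. In c-Myc-low cells (355 genes, 0 receptors) they called 774, 1708, 3944, 549 (pseudocount 0.1), 225, 2276 and 665 genes, and 1, 4, 5, 1 (pseudocount 1), 1 (without robust estimation), 4 and 1 receptors. Over both classes (2316 genes) DESeq2 called 3999 and pseudocount 1 called 796. Between classes, where 0 were called, counts were 2, 406, 2, 5 and 11 in primary tumours (no filter, DESeq2, voom, pseudocounts 0.1 and 1), 86 and 2 in metastases (DESeq2, pseudocount 0.1), 2, 511, 1 and 2 over both sites and 1 and 85 for the difference. Leaving out 1 library gave 300 to 1232 genes and 0 to 1 receptors in c-Myc-high, 127 to 572 and 0 to 1 in c-Myc-low, 722 to 2788 and 1 to 3 over both classes, 0 to 33 genes in metastases and 0 to 17 over both sites between classes, with 0 receptors.

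Deviations from group means of same-numbered libraries correlated at -0.305 to 0.153, counting pairs within and across sites. Both primary pairs stood at 0.0774, since the deviations of 2 libraries mirror each other. With so few libraries this cannot decide whether same-numbered libraries came from the same animal. The main fit took no pairing. With the replicate block 150 genes were called in c-Myc-high, 140 in c-Myc-low and 965 over both classes, and 0, 0 and 2 receptors. The Egfr call in c-Myc-high (adjusted p = 0.119) and the Erbb2 call over both classes (adjusted p = 0.123) were lost under it.

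Signs of values that had not passed turned in these cases. In c-Myc-high metastatic over primary, Kit was -0.0207 without salivary-rich libraries and Fgfr1 0.98 with the highest transcript. Leaving out 1 library gave -1.75 to 0.55 for Igf1r, -2.60 to 0.37 for Fgfr1 and -1.28 to 0.92 for Ntrk2, each highest without primary c-Myc-high replicate 1. In c-Myc-low, leaving out 1 library gave -0.42 (metastatic replicate 1) to 0.48 for Erbb3, -1.03 to 0.30 (primary replicate 1) for Igf1r and -0.77 to 0.39 for Fgfr1, positive without primary replicate 2 or metastatic replicate 3. Fgfr1 was 0.0202 there with pseudocount 1, and over both classes -1.43 to 0.0079 (without primary c-Myc-high replicate 1). Between classes, Kdr over both sites was -0.037 and -0.14 on RPKM. Igfbp2 was -2.43 with voom and -7.41 (without primary c-Myc-high replicate 2) to 6.29 in primary tumours, and 0.91 and -9.98 to 4.62 for the difference. Flt1 was -7.10 to 8.47 (without primary c-Myc-high replicate 1) for the difference. Without salivary-rich libraries Fgfbp1 was -1.59 in metastases, -0.80 over both sites and -1.57 for the difference, and Lrig1 -0.33 in metastases. On RPKM Fgfbp1 was -0.33 over both sites (pseudocount 1) and Grb10 -0.35 and -1.01 for the difference. The cause was not tested. A planned share of alternative Fgfr1 exons was not run, since GENCODE M21 annotates no such pair there. Depth limits Ret and transcript shares, where 3 counts stand for up to 2.8 CPM.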
